A study of Mus musculus with 9 samples.

Results

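The BG2 cells described here are a cell line grown from a mammary tumour of the MMTV-NeuIresCre strain (MMTV-NIC), sequenced as a bulk population labelled wild-type. They made up 3 of the 9 libraries of a study whose other 6 libraries came from Sox10 knockout clones of the same line. The members were chosen by their labels alone, as the 3 columns whose names hold NTC, a term that the labels do not spell out. The other 6 columns were not used, so the values below are a baseline profile with no contrast and no test. In this mouse model the MMTV promoter, active mainly in mammary epithelium, drives 1 transcript that encodes Neu (rat Erbb2) and, through an internal ribosome entry site, the recombinase Cre. "Wild-type" therefore refers to Sox10 and not to the transgene, which all 9 libraries share by their strain label. The 3 libraries are technical replicates of 1 cell line, and the labels do not say at which step they parted. Their spread is thus not the spread between tumours, animals or cultures.

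The mammary gland is lined by an inner layer of luminal cells and an outer layer of basal, or myoepithelial, cells. Luminal cells are built on the keratins Krt8 and Krt18 and divide further into hormone-sensing cells, marked by oestrogen and progesterone receptors, and progenitor and milk-secreting cells, marked by Elf5 and Kit. Basal cells carry Krt5, Krt14, the factor Trp63 and a smooth-muscle contractile apparatus. Sox10, best known as a factor of the neural crest and its glial and pigment cell derivatives, is also made in mammary progenitor cells. Erbb2 is the receptor tyrosine kinase whose activated form starts the tumours of this model.

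Each library was a polyA-enriched, stranded RNA library of 66586056, 74460483 and 82605104 counts in replicates 1, 2 and 3. Levels are given as CPM, the counts of a gene relative to the total of its library (per 1000000 counts), as mean ± SD with n = 3. To compare genes with each other, CPM was divided by exon length in kilobases (CPM per kb), because a longer transcript yields more reads. A sum of 3 counts over the 3 libraries, or 0.0134 CPM, was taken as the floor below which no level was read. This floor covers counting error only, and the reads carry no molecular identifiers. The SD is that between the 3 libraries and holds their differences as well as counting error. Replicate 1 stood apart from the others. Among 9003 genes at 10 CPM or more, 201 differed over 1.5-fold between replicates 1 and 2, 228 between replicates 1 and 3, and 1 between replicates 2 and 3. The median coefficient of variation of these genes was 5.38%. No list described below had another number of members at 1 CPM or more when replicate 1 was left out.

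The 6 markers of the line were all abundant, each above 100 CPM in every library, a level that 10.1% of the 24594 genes reached. Krt7, a keratin of simple epithelia, measured 3596, 3877 and 3915 CPM in replicates 1 to 3 (3796 ± 174 CPM) and ranked number 6 of all genes. Krt8 measured 2255, 2442 and 2499 CPM (2399 ± 128 CPM, rank 18). Krt18, with which Krt8 pairs into filaments, measured 2091, 2360 and 2477 CPM (2309 ± 198 CPM, rank 21). The 3 keratins thus lay among the 21 most abundant transcripts in a cell line labelled mammary epithelial. Per kb the order of their means reversed, with Krt18 at 1607 ± 138, Krt8 at 1225 ± 65.3 and Krt7 at 927 ± 42.6 CPM per kb. The exon length used for Krt7 joins the exons of all its RefSeq-linked transcripts, 4094 bases against 1958 for Krt8 and 1437 for Krt18, and its value per kb depends on that choice.

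Epcam, an adhesion molecule of epithelial surfaces, varied least of the 6 markers, at 673, 661 and 652 CPM (662 ± 10.1 CPM, rank 162). Erbb2 measured 512, 565 and 587 CPM (555 ± 38.5 CPM, rank 214). The table holds 1 Erbb2 entry, so reads of the rat transgene and of the mouse gene cannot be told apart in it. Sox10 measured 250, 288 and 315 CPM (284 ± 32.6 CPM, rank 618). Within single libraries its rank was 746, 613 and 536 in replicates 1, 2 and 3. It was the lowest of the 6 markers by CPM, with the largest spread relative to its mean, while per kb its libraries (105 ± 12.0) overlapped those of Erbb2 (111 ± 7.69 CPM per kb). It lay far above the median of 37.6 CPM of the genes at 1 CPM or more.

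**Figure D1:**
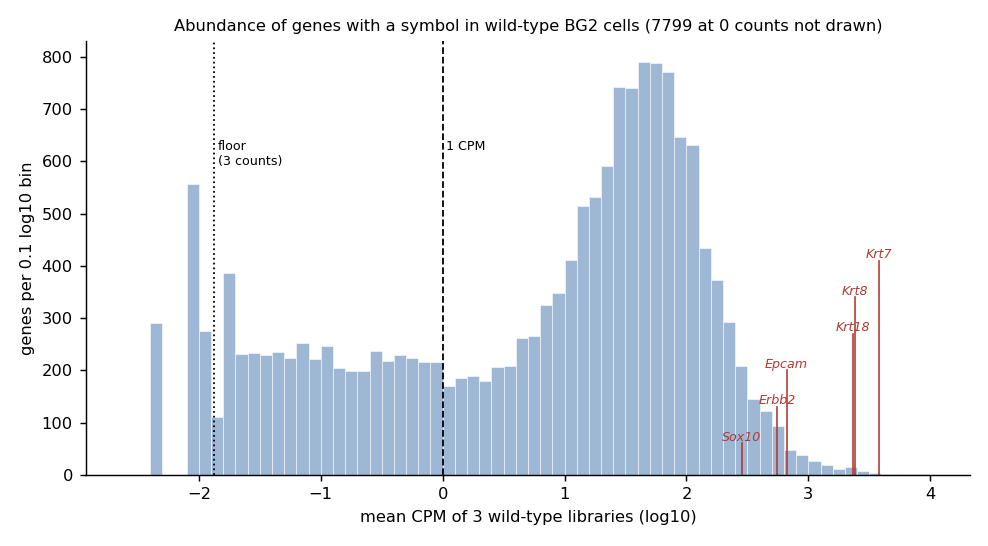
Number of genes (vertical axis) by mean CPM over the 3 wild-type libraries (horizontal axis, log10, bins of 0.1), with the floor of 3 counts and the level of 1 CPM as broken lines and the 6 marker genes as red lines. The genes form a broad peak between 10 and 100 CPM and a flat tail toward the floor, and all 6 markers lie to the right of the peak.

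Of the 24594 genes, 11346 (46.1%) had a mean of 1 CPM or more, and 9043 (36.8%) lay at or under the floor, 7810 of them with 0 counts in all 3 libraries. Between these, 4205 genes lay above the floor and under 1 CPM, which is called a trace below. The 2473 genes at 100 CPM or more held 71.4 ± 0.725% of the counts. The RNA was spread over many genes: the 10 most abundant took 4.70 ± 0.175% of a library and the 100 most abundant 18.0 ± 0.559%. Protein-coding genes took 98.8% of the counts and long non-coding RNAs 0.453%. No gene of the mitochondrial genome is among the genes analysed here.

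The 10 most abundant transcripts had varied functions. Eef1a1, the factor that brings aminoacyl-tRNA to the ribosome, measured 8447, 8808 and 8688 CPM. Fth1, the heavy subunit of the iron store ferritin, measured 7175, 7652 and 8002 CPM. Together with Eef2 (5175 ± 305 CPM), which moves the ribosome along the mRNA, and the chaperone Hsp90ab1 (5142 ± 146 CPM) they were the only genes above 5000 CPM. Next came cytoplasmic actin Actb (4116 ± 117 CPM), Krt7, the enolase Eno1b (3301 ± 195 CPM) and the pyruvate kinase Pkm (3267 ± 174 CPM). Eno1b is nearly identical to its parent gene Eno1, which measured 557 CPM, and how reads were divided between them is uncertain. Ly6e, a small lipid-anchored surface protein (2990 ± 208 CPM), and the fatty acid desaturase Scd2 (2914 ± 60.3 CPM) completed the first 10. The next 10 included Ppia, Rplp0, Gapdh, Hspa8, Myh9, Flna, Krt8, Ddb1 and Tubb5, between 2343 and 2757 CPM.

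Ranking per kb brought forward short transcripts, and 9 of the 20 leading genes were shared by both rankings. Fth1 (5073 CPM per kb) then stood before Eef1a1 (4820 CPM per kb), followed by Rpl41 (2822 CPM per kb) and S100a6 (2543 CPM per kb), a small calcium-binding protein. Lgals1, a galactose-binding lectin, measured 2090 CPM per kb, and Ftl1, the light ferritin subunit, 2018 CPM per kb. Lcn2, a secreted protein that binds iron-carrying siderophores and a marker of luminal progenitors, measured 1938 ± 37.9 CPM per kb and ranked number 13 per kb. Pfn1, Rack1, Rplp1 and Rpl8 were among the other leading genes. Krt18 was the only keratin among the first 20 per kb.

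Cytosolic ribosomal protein genes, 80 of 86 at 1 CPM or more (93.0%, against 46.1% of all genes), took 3.51 ± 0.200% of the counts. Their levels spread widely. Rplp0 measured 2680 CPM, Rps27 1.38 CPM, and Rpl26, which every cell uses, 0 counts in all 3 libraries. Rps18 measured 31.6 CPM while a gene named as a pseudogene copy of it, Rps18-ps4, measured 1026 CPM. A low value or a 0 in a gene with near-identical copies is therefore not read as absence anywhere in these results.

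Of the lists of lineages and cell types, the luminal list had the largest share of members at 1 CPM or more. It mixes luminal with general epithelial genes, so this share does not set luminal cells apart from other epithelia. Of 30 genes of luminal and general epithelial identity, 27 reached 1 CPM (46.1% of all genes did), all 27 of them also reached 10 CPM, and their median over the whole list was 223 CPM, against 0.370 CPM over all genes. The secreted protease inhibitor Wfdc2 measured 601, 656 and 676 CPM. The claudins Cldn3, Cldn4 and Cldn7, strands of the tight junction, measured 521 ± 36.2, 465 ± 50.1 and 236 ± 6.88 CPM. Cdh1, the cadherin of epithelial adherens junctions, measured 328, 340 and 359 CPM. The membrane protease St14 measured 420 ± 24.3 CPM, and its inhibitors Spint2 and Spint1 measured 408 ± 25.3 and 284 ± 20.3 CPM. The splicing regulators Esrp1 and Esrp2, which set epithelial exon choice, measured 185 ± 3.53 and 57.7 ± 2.30 CPM.

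The 3 luminal genes under 1 CPM included classical ones. Krt19, a keratin of many luminal cells, had 15 counts in all and was seen in 2 of the 3 libraries. Muc1, the mucin of the apical surface, measured 0.387 ± 0.0443 CPM, and Prom1 had 0 counts. Among the 25 claudins of the annotation, 8 reached 1 CPM (32%, against 46.1% of all genes). At or under the floor lay 12 (48%, against 36.8%). Cldn12 (216 ± 16.8 CPM) followed the 3 named above.

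**Figure D2:**
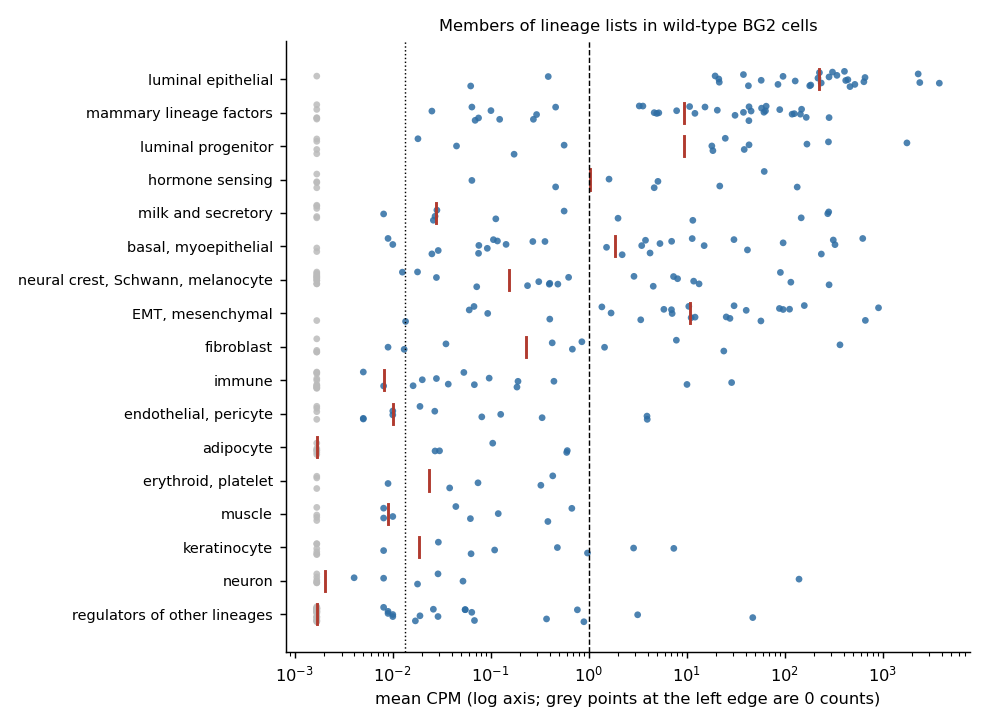
Mean CPM (horizontal log axis) of each member (points) of 17 gene lists, with the median of each list as a red bar, the floor as a dotted line and 1 CPM as a broken line. Members with 0 counts are drawn in grey at the left edge. The luminal list lies almost wholly to the right of 1 CPM, and the lists of fat, muscle, blood and other cell types lie almost wholly to the left.

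Among 40 transcription factors known from the mammary lineages, 26 reached 1 CPM (65%, against 46.1% of all genes) and 5 had 0 counts. Sox10 and Cebpb, a factor of alveolar differentiation, stood well above the rest per kb. Sox10 measured 105 ± 12.0 and Cebpb 111 ± 14.4 CPM per kb, with libraries that overlapped, so the order of the pair is not set by these data. Gata3, the main factor of luminal fate, followed at 27.7 ± 1.11 CPM per kb. The epithelial factors Ehf and Grhl2 measured 26.7 ± 2.20 and 25.4 ± 0.911 CPM per kb and each overlapped the one before it. Runx1 lay below these at 20.01 ± 0.248 CPM per kb, overlapping neither neighbour in the order. Klf5 (17.4), Elf5 (16.3), Nfib (15.7), Sox9 (15.7), Tfap2c (14.8) and Zfp703 (13.0 CPM per kb) formed the next group. Each overlapped the next from Klf5 to Sox9.

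Elf5, the factor of alveolar progenitors, measured 38.9, 42.9 and 48.3 CPM. Stat5b, Foxc1, Hes1, Tfap2a, Elf3, Id2 and Stat5a lay between 7.86 and 11.1 CPM per kb. Stat5a and Stat5b carry the prolactin signal, and Hes1 is a Notch target. Ovol2, Grhl1, Msx1, Msx2, Ovol1 and Id4 followed between 0.853 and 4.09 CPM per kb. Esr1, the oestrogen receptor, measured 5.69, 4.04 and 4.26 CPM, or 0.510 CPM per kb, last of the 26. Its partner Foxa1 measured 0.390, 0.457 and 0.533 CPM, and Pgr, the progesterone receptor, had 0 counts. Tbx3, Tbx2, Hey1, Eomes, Bhlha15, Cited1 and Spdef were traces between 0.0251 and 0.294 CPM. Trp63, the basal master factor, had 17 counts in all (0.0751 CPM). Bcl11a, Bcl11b, Myb and Foxi1 had 0 counts.

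Sox10 also led its own family. Of 20 Sox genes, 7 reached 1 CPM (35%, against 46.1% of all genes) and 10 lay at or under the floor (50%, against 36.8%). Per kb, Sox4 (29.97 ± 0.403) and Sox9 (15.7 ± 0.568) followed Sox10 (105 ± 12.0), then Sox13 (3.96 ± 0.219), with no overlap between neighbours. Sox8, the closest relative of Sox10 together with Sox9, was a trace at 0.624 CPM. Sox2, Sox11, Sox17 and Sox18 had 0 counts.

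Few other neural crest genes accompanied Sox10. Of 30 genes of the neural crest, Schwann cells and melanocytes, a list that includes Sox10 itself, 9 reached 1 CPM (30%, against 46.1% of all genes). At or under the floor lay 12, or 40%, near the 36.8% of all genes. Mbp, a myelin protein, measured 113, 115 and 120 CPM, and Erbb3, the kinase-impaired partner of Erbb2, 83.2, 93.1 and 95.4 CPM. L1cam and Ncam1, adhesion molecules of nerve and glia, measured 13.4 ± 0.635 and 11.8 ± 1.04 CPM. Foxd3, Pax3, Pax7, Ednrb and Tfap2b, early crest regulators and receptors, and the pigment enzymes Dct, Tyr and Tyrp1, had 0 counts.

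The luminal progenitor and milk lists were split. Of 16 progenitor genes 8 reached 1 CPM (50%, near the 46.1% of all genes), led by Lcn2 (1737, 1775 and 1807 CPM), the endotoxin co-receptor Cd14 (280 ± 5.20 CPM) and the cytokine Lif (169 ± 11.9 CPM). Kit, the stem cell factor receptor that defines these cells in sorting, had 10 counts, all in replicate 2. Aldh1a3 had 4 counts, and Tspan8 0. Of 16 milk and secretory genes 5 reached 1 CPM (31.25%, against 46.1% of all genes). The lipid-globule genes Mfge8, Plin2 and Xdh measured 282 ± 28.7, 276 ± 13.2 and 148 ± 17.3 CPM. The caseins were at trace level or under the floor: Csn3 measured 0.562 CPM, Csn1s1 0.113 CPM and Csn2 0.0270 CPM (6 counts). Csn1s2a and the whey genes Wap and Lalba had 0 counts, as did Glycam1. Of 12 hormone-sensing genes 6 reached 1 CPM, also 50%, among them the surface antigen Ly6a (134 ± 1.98 CPM), the growth factor Areg (61.95 ± 7.497 CPM) and the prolactin receptor Prlr (21.8 ± 3.01 CPM). The cytokine Tnfsf11, made by such cells, had 0 counts.

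Of 30 basal and myoepithelial genes, 16 reached 1 CPM (53.3%, near the 46.1% of all genes), led by adhesion and matrix genes. Itgb4 and Itga6, the integrin of hemidesmosomes, measured 627 ± 22.4 and 327 ± 29.9 CPM. Lamb3, a chain of the laminin that this integrin binds, measured 237 ± 11.4 CPM. These genes are shared with other epithelia. Several of the defining basal genes were low. Krt14 measured 3.14, 3.69 and 4.58 CPM, and its partner Krt5 had 23 counts in all (0.165, 0.0940 and 0.0605 CPM). The contractile gene Acta2 had 7 counts. It does not stand for the other contractile genes of the list, some of which reached 1 CPM. Krt6a and Krt6b lay under the floor, and Cdh3 and Igfbp5 had 0 counts. In a bulk sample, fewer cells of a kind and less RNA per cell cannot be told apart, which holds for Krt14 and every other low marker below.

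Of 26 mesenchymal genes, 20 reached 1 CPM (76.9%, against 46.1% of all genes) and 2 lay at or under the floor (7.69%, against 36.8%). Vim, the intermediate filament of mesenchymal and many cultured cells, measured 887, 918 and 922 CPM. The calcium-binding S100a4 measured 667 ± 29.5 CPM (1340 CPM per kb). Both cadherins were present, with Cdh2 at 32.8 ± 1.49 and Cdh1 at 77.2 ± 3.49 CPM per kb. Of the factors that repress Cdh1, Twist1 measured 40.6 ± 1.16 CPM and Snai1 30.5 ± 1.40 CPM. Zeb1 and Zeb2 measured 10.5 ± 0.963 and 5.86 ± 1.30 CPM, Snai2 was a trace at 0.401 CPM, and Foxc2 had 0 counts. Axl, a receptor often named in this program, measured 112 ± 4.31 CPM, and the matrix protein Sparc 42.0 CPM per kb.

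Markers of other cell types were mostly at the floor. Of 111 markers of fibroblasts, immune, endothelial, fat, blood, muscle, squamous and nerve cells, 11 reached 1 CPM (9.91%, against 46.1% of all genes), and 59 lay at or under the floor (53.2%, against 36.8%). Their sum was 601 to 615 CPM per library, and Fbln2, a matrix protein (367 ± 7.71 CPM), and Map2, a microtubule protein (140 ± 14.8 CPM), made up most of it. Of 25 immune genes 2 reached 1 CPM, S100a8 (28.8 ± 5.04 CPM) and Cd68 (10.1 ± 2.53 CPM). The pan-leukocyte gene Ptprc had 8 counts, and the T cell genes Cd3e and Cd8a had 0. Of 14 fibroblast genes 4 reached 1 CPM, with Pdgfrb at 23.96 ± 1.73, Pdgfra at 7.85 ± 0.193 and Col1a1 at 1.45 ± 0.181 CPM. Other fibroblast genes of the list, among them Dcn (2 counts), Col3a1, Lum and Thy1 (0 counts), lay at or under the floor. Of 15 endothelial and pericyte genes 2 reached 1 CPM, the secreted Egfl7 (3.96 ± 1.00 CPM) and the receptor Flt1 (3.94 ± 0.326 CPM). The endothelial genes Pecam1 and Cdh5 had 2 counts each. The fat cell regulator Pparg had 0 counts. No member of the fat, blood and muscle lists reached 1 CPM.

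Master regulators of other tissues gave a like count. Of 40 such factors 2, Runx2 and Gata4, reached 1 CPM (5.0%, against 46.1% of all genes). Runx2, a bone factor that is also made in mammary epithelium, measured 47.3 ± 1.69 CPM. Gata4, a factor of heart and gut, measured 3.16 ± 0.327 CPM. At or under the floor lay 27 of the 40 (67.5%, against 36.8% of all genes), among them Cdx2, Nkx2-1, Hnf4a, Myod1, Pax6 and Sox2.

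The keratin genes lie in a type II cluster on chromosome 15, which also holds the type I gene Krt18, and a type I cluster on chromosome 11. Of 54 keratins 8 reached 1 CPM (14.8%, against 46.1% of all genes), and 26 lay at or under the floor (48.1%, against 36.8%). Only 4 reached 100 CPM, a level that 10.1% of all genes reached, and all of them lie on chromosome 15. These 4 sat at the outer ends of that cluster, a span of 27 genes from 101348315 to 102032026 (GRCm38). Krt80 (115 ± 4.08 CPM) and Krt7 lie at one end, and Krt8 and Krt18 at the other. The 23 genes between them, Krt87 to Krt78, had at most 1.71 CPM, and that was Krt87, next to Krt7. On chromosome 11, 3 of 27 reached 1 CPM: Krt10 (7.40 ± 0.580 CPM), Krt14 and Krt23 (2.82 ± 1.13 CPM).

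**Figure D3:**
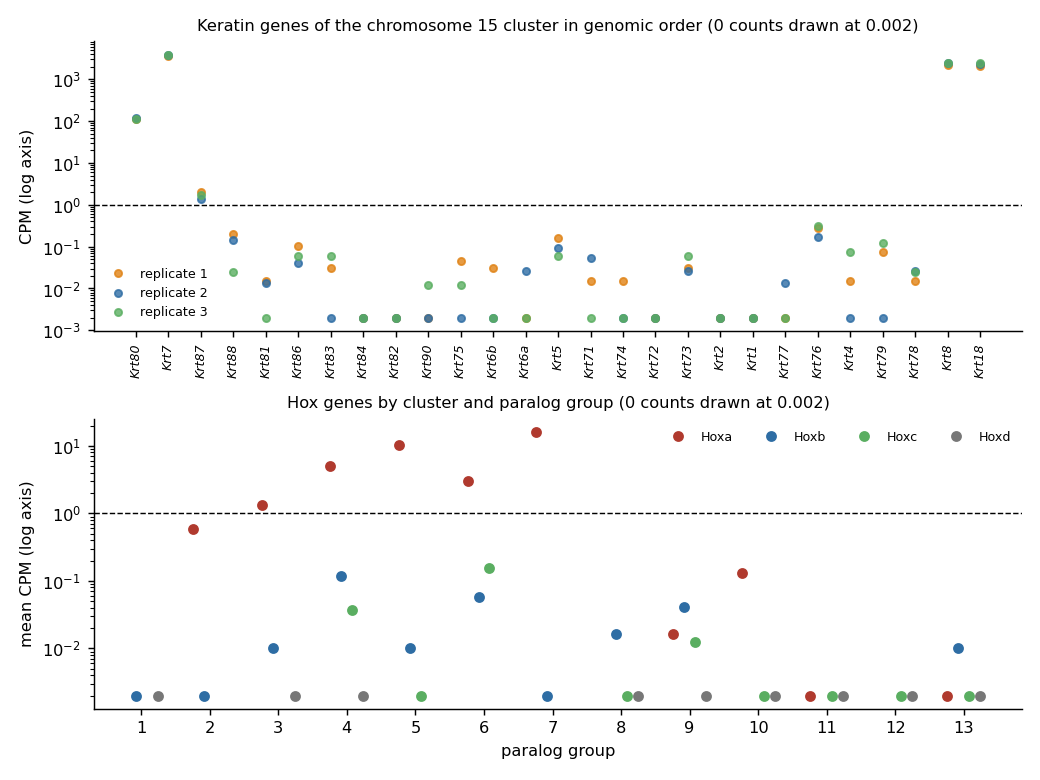
Upper panel, CPM (log axis) of the 27 keratin genes of chromosome 15 in genomic order, 1 point per library; lower panel, mean CPM (log axis) of Hox genes by paralog group and cluster. Values of 0 are drawn at the bottom of each panel, and the broken line is 1 CPM. In the upper panel only the outer genes are high, and in the lower panel only Hoxa genes pass 1 CPM.

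The promoters of these neighbours show how different such sequences can be at like levels. They are printed for the abundant Krt7, Krt8 and Krt18, for the scarce basal keratin Krt5 inside the same cluster, and for the casein Csn2. Each runs 5′ to 3′ on the strand of its gene, from 250 bases before the annotated start to 50 after it (RefSeq, GRCm38.p6), with every CG dinucleotide (CpG), the site of DNA methylation in mammals, in capitals. Krt7 is at chr15:101412153-101412452 (+), Krt8 at chr15:102004293-102004592 (-), Krt18 at chr15:102027966-102028265 (+), Krt5 at chr15:101712856-101713155 (-) and Csn2 at chr5:87699376-87699675 (-).
Krt7: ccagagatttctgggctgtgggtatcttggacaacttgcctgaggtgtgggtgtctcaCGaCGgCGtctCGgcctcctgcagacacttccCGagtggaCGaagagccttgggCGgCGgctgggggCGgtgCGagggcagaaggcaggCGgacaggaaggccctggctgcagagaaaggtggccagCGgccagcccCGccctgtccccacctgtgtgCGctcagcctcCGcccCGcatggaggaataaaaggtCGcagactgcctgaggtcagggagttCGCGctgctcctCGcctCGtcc
Krt8: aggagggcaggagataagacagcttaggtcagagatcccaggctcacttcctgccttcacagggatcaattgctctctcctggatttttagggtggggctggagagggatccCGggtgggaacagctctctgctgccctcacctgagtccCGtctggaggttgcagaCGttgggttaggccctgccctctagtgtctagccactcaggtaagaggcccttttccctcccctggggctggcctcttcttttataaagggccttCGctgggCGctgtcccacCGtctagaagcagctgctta
Krt18: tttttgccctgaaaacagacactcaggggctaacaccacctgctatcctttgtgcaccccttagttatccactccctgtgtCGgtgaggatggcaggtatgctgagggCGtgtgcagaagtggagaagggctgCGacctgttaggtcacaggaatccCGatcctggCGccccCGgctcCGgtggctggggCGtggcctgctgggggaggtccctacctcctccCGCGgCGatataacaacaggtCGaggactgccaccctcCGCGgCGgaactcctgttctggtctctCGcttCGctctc
Krt5: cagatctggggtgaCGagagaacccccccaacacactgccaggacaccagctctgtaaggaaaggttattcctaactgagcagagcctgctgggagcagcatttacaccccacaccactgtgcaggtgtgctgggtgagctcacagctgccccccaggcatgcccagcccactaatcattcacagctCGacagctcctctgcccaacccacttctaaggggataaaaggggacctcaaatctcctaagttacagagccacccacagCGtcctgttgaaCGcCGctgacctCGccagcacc
Csn2: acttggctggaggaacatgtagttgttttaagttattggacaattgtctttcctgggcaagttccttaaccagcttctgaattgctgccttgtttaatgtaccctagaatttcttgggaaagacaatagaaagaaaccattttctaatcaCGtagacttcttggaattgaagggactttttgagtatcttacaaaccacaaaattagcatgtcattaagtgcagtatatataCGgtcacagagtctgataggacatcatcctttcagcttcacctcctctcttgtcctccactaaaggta

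The Krt7 window holds 21 CpG, Krt18 17, Krt8 6, Krt5 6 and Csn2 2. Krt8 and Krt5 thus had the same CpG count with 538419 and 23 counts of RNA. The Krt8 window also holds the letters TATAAA, while those of Krt7, Krt18, Krt5 and Csn2 do not on either strand. Of the other markers, Erbb2 holds 21 CpG and Epcam 11, and no promoter was listed for Sox10. Lcn2, at 1773 CPM, holds 3. Foxa1, at 0.460 CPM, holds 26, so Lcn2 and Foxa1 did not follow the distribution over all genes. Other single genes went with it: Gata3, at 89.2 CPM, holds 22, and Csn1s1, at 0.113 CPM, holds 0.

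Over the 18386 genes with a RefSeq promoter, CpG counts were higher in more abundant genes. The median was 3.0 CpG in genes at or under the floor, 7.5 in traces, 16.0 between 1 and 10 CPM, 22.0 between 10 and 100 CPM and 23.5 at 100 CPM or more, against 13.0 over all. Fewer than 5 CpG were found in 57.6% of the genes at or under the floor and in 3.20% of those at 100 CPM or more, against 27.5% of all. The letters TATAAA, searched on both strands, went the other way, in 23.3% of the promoters of the first group and 8.05% of the last, against 14.4% of all. These are descriptions over genes of 1 cell line, and no methylation was measured. Of the lists, immune markers (median 3.5 CpG over 17 matched genes) and squamous markers (2.5 over 10) held few, and both lists were mostly under 1 CPM, while mammary lineage factors held a median of 19.75 over 26 matched genes and housekeeping genes 24 over 15. Scarce lists also held many: nerve cell markers, 7 of 8 matched genes under 1 CPM, had a median of 23.5, and regulators of other lineages, 27 of 28 under 1 CPM, 16.75.

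**Figure D4:**
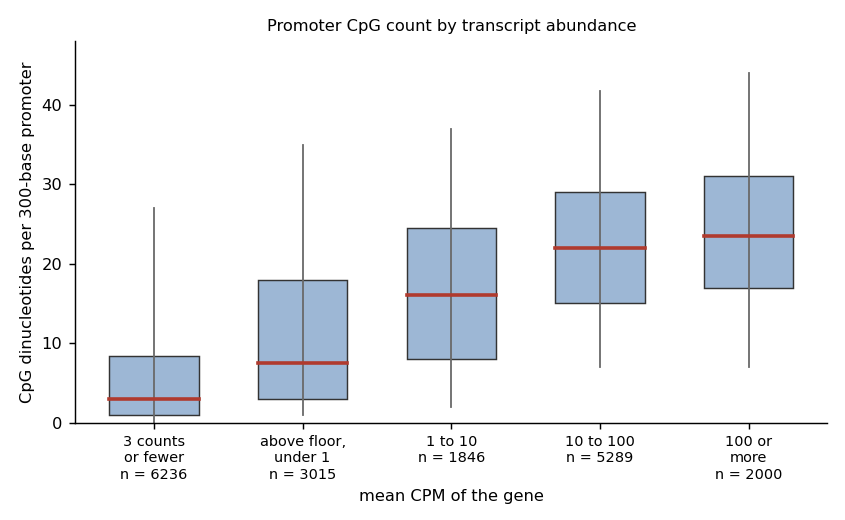
CpG dinucleotides per promoter of 300 bases (vertical axis) by mean CPM of the gene (horizontal axis, 5 bands with the number of genes). Red lines are medians, boxes the interquartile range and whiskers the 5th to 95th percentile; the median rises from 3.0 to 23.5, and the ranges of all bands overlap.

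Of the 39 Hox genes, factors of body position, 6 reached 1 CPM (15.4%, against 46.1% of all genes). At or under the floor lay 24 of the 39 (61.5%, against 36.8%). All 6 at 1 CPM or more belong to the Hoxa cluster on chromosome 6. Hoxa7 measured 13.97, 16.2 and 17.3 CPM and Hoxa5 10.6, 11.03 and 9.39 CPM. Hoxa4, Hoxa6 and Hoxa3 measured between 1.35 and 4.99 CPM. Outside that cluster the highest was Hoxc6 at 0.154 CPM, and all 9 Hoxd genes had 0 counts.

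Erbb2 led the receptor tyrosine kinases. Of 58 genes of this family 29 reached 1 CPM (50%, near the 46.1% of all genes) and 16 lay at or under the floor (27.6%, against 36.8%). Erbb2 measured 111 ± 7.69 CPM per kb, with no overlap with the next, the ephrin receptor Epha2, at 74.4 ± 2.78. The Wnt co-receptor Ptk7 (52.9 ± 1.44) and the hepatocyte growth factor receptor Met (50.02 ± 3.71 CPM per kb) followed and overlapped. The collagen receptor Ddr1 (42.8 ± 3.09) and Epha1 (42.3 ± 1.28 CPM per kb) overlapped as well. Ryk, Ephb4 and Axl came next, at 37.0, 35.5 and 26.2 CPM per kb. Within the Erbb family, Erbb3 measured 15.1 ± 1.08 and Egfr 2.78 ± 0.176 CPM per kb, and Erbb4 had 0 counts. Of 11 Erbb ligands 6 reached 1 CPM (54.5%, near the share of all genes). Areg (51.0 ± 6.17), Hbegf (33.8 ± 1.67) and Tgfa (17.5 ± 1.30 CPM per kb) led, all ligands of Egfr, and did not overlap. Nrg1, a ligand of Erbb3, measured 0.357 CPM per kb, and Nrg3 had 0 counts. Of kinase receptors better known from other cell types, the fibroblast receptors Pdgfrb and Pdgfra measured 4.43 and 1.11 CPM per kb and the endothelial Flt1 0.359 CPM per kb. The endothelial Kdr had 4 counts and the blood receptor Flt3 2.

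**Figure D5:**
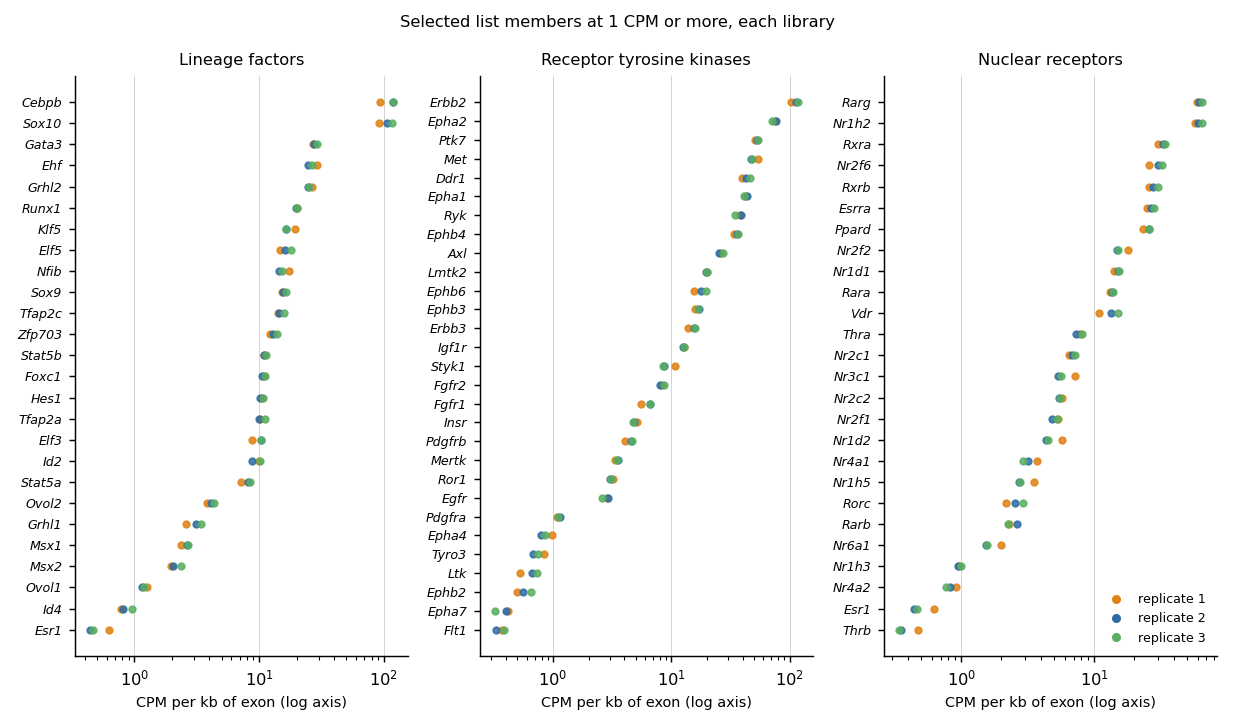
CPM per kb of exon (log axes) in each of the 3 libraries for members at 1 CPM or more of the lists of mammary lineage factors, receptor tyrosine kinases and nuclear receptors, in order of their mean. Cebpb and Sox10 lie apart from the other lineage factors, Erbb2 lies to the right of the other kinases, and Esr1 is last or next to last where it appears.

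Of 49 nuclear receptors, the hormone and lipid sensors that bind DNA directly, 27 reached 1 CPM and 17 lay at or under the floor. These shares, 55.1% and 34.7%, are near the 46.1% and 36.8% of all genes. The retinoic acid receptor Rarg (61.9 ± 3.11) and the oxysterol receptor Nr1h2 (60.9 ± 3.40 CPM per kb) led and overlapped. The retinoid partner Rxra (32.3), Nr2f6 (29.5), Rxrb (27.9), Esrra (26.6) and Ppard (24.9 CPM per kb) formed an overlapping series below them. Vdr, the vitamin D receptor, measured 13.1 CPM per kb, and the glucocorticoid receptor Nr3c1 6.04 CPM per kb. Of the oestrogen and progesterone receptors, Esr1 measured 0.510 CPM per kb, while Pgr and Esr2 had 0 counts.

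Cytokine and growth factor receptors were widely present, with 32 of 44 at 1 CPM or more (72.7%, against 46.1% of all genes). At or under the floor lay 4 (9.09%, against 36.8%). Tnfrsf12a, the receptor of the cytokine TWEAK, measured 435, 462 and 449 CPM, or 456 ± 13.8 CPM per kb. Ltbr (93.3) and Tnfrsf1a (63.6 CPM per kb), receptors of the same family, came after it, then Il10rb (43.5) and Ifngr1 (29.7 CPM per kb). Of 22 Wnt, Notch and Hedgehog receptors 18 reached 1 CPM (81.8%), led by the Wnt co-receptor Lrp5 (75.9) and the Hedgehog transducer Smo (50.1 CPM per kb). Notch1 and Notch2 measured 13.3 and 12.2 CPM per kb. The stem cell receptor Lgr5 and Fzd10 had 0 counts. Of 32 integrins and surface markers 19 reached 1 CPM (59.4%, against 46.1% of all genes). Itga3, a laminin receptor, measured 1984, 2012 and 2039 CPM and led per kb at 383 ± 5.23, before its partner Itgb1 (164 ± 19.1 CPM per kb). The hyaluronan receptor Cd44 and the glycoprotein Cd24a measured 111 ± 5.37 and 121 ± 10.4 CPM per kb and overlapped.

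Genes of the cell cycle were abundant. Of 33 members of the cycle and oncogene list 28 reached 1 CPM (84.8%, against 46.1% of all genes), and all 28 also reached 10 CPM. Ccnd1, the cyclin that drives entry into the cycle, measured 1446, 1430 and 1352 CPM, and its kinases Cdk4 and Cdk6 192 and 19.7 CPM per kb. Its relative Ccnd2 had 10 counts. Cdkn2a and Cdkn2b, adjacent inhibitors of these kinases on chromosome 4, had 0 counts in all 3 libraries. On either side of the pair, Mtap measured 179, 167 and 155 CPM and Dmrta1 had 22 counts. The related inhibitors Cdkn2c and Cdkn2d measured 53.9 ± 1.84 and 40.6 ± 3.39 CPM. Genomic DNA of the line was not measured in these libraries. Of 13 antigen presentation genes 10 reached 1 CPM (76.9%, against 46.1% of all genes). The class I genes H2-D1 and H2-K1 measured 367 and 284 CPM per kb and the peptide transporter Tap1 3.99 CPM per kb.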

How the data were processed

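The deposited values are raw counts per gene, whole numbers without normalization, made by the authors with fastp and Subread on mm10 (GRCm38), per the submitters' processing notes, which also name DESeq2. The sources do not state the annotation, the strand setting or the treatment of reads with several matches. The 6 columns of the knockout clones were not used. Entries were matched by Entrez ID to GENCODE M21 and RefSeq tables of the same build. Exon length joins the exons of RefSeq-linked transcripts and was found for 21179 of 24594 genes. Of the genes at 1 CPM or more, 323 had no length and enter no ranking per kb. The floor was 3 counts over the 3 libraries, and genes at 10 CPM or more entered the comparison of replicates.

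The members were set by their labels alone, but both they and the gene lists were chosen with earlier results of these data known. Named genes were the markers, the lineage factors, the 20 leading genes by CPM and per kb, up to 5 leading members and up to 10 members at the floor of each list, and the 10 genes of widest spread. Other members (Foxa1, Krt14 and other cell type markers, the keratins and Hox genes, Rps27, Rps18-ps4, the neighbours of Cdkn2a) were named after their values were seen. A few genes named by this rule are left out of the text and plots but stay in the counts. The list members Flg, Hba-a2 and Hbb-bs are not analysed here. Ranges that overlap are those of single libraries. The replicates were checked for double deposit: the chi-square per degree of freedom of their counts was 32.9, 49.3 and 8.37 for pairs 1 and 2, 1 and 3, and 2 and 3, so they are separate libraries. The common biological coefficient of variation in edgeR was 0.0987 over 13250 genes. Software was R 4.3.3, edgeR 4.0.16, DESeq2 1.42.0 (for size factors only), Python 3.11.15, pandas 2.3.3 and blastn 2.17.0; the scripts were tested on simulated data.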

Additional observations from a re-analysis of the deposited data

Results flagged for a closer look

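The most abundant of the 24 entries without a gene symbol, gene ID 100861531, measured 1778 CPM, far above the 0.0134 CPM that 3 counts over the libraries allow. It drew attention because no list or ranking of named genes includes it. The next such entry measured 41.9 CPM, and 13 of the 24 lay above the floor.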

How the results depend on the processing

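Scaling by TMM or DESeq2 size factors left 11346 and 11345 genes at 1 CPM or more, and a level of 0.5 or 5 CPM left 12003 and 9942. The count of markers of other cell types moved with that level, from 11 to 17 at 0.5 CPM and to 7 at 5 CPM. The basal count was 16 at 0.5 CPM and 11 at 5 CPM, and the luminal count 27 at both. A floor of 0 or 10 counts left 7810 or 10312 genes. Sox10 ranked 618 with TMM, 680 per kb, and 488 per kb over all GENCODE transcripts, an alternative chosen after seeing the data.

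With each library left out in turn, the ranges were 11335 to 11367 genes at 1 CPM or more, 9463 to 9521 at the floor, 27 to 27 luminal, 16 to 16 basal and 11 to 12 other markers. The shares were 17.8 to 18.3% for the 100 most abundant genes and 3.43 to 3.62% for ribosomal protein genes, and the Sox10 rank was 566 to 668. Without ribosomal protein genes in the total, the 100 most abundant took 18.0%. No paired analysis was possible because no groups were compared and no test was run. Depth limits the genes near the floor, where a few counts decide whether a gene is a trace.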

Other observations

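Replicate 1 differed from the others in 1 direction for most of the genes concerned. Of 280 genes at 10 CPM or more with over 1.5-fold between any 2 libraries, 269 were highest in replicate 1 and 10 were lowest there. The 10 widest included Knl1, Cyp2f2, Kif20b, Malat1, Ptpn4, Arhgap5, Cep290, Phip and Ifi202b. Malat1, a nuclear non-coding RNA, measured 228, 121 and 109 CPM, and Cyp2f2, the exception among the 10, measured 18.4, 40.3 and 34.0 CPM. In 4 groups of like size by exon length, the median log2 ratio of replicate 1 to the mean of the other 2 was -0.07 in the shortest genes, then -0.01, 0.03 and 0.09 in the longest. Across 8899 genes, which are not independent, the Spearman rho of length and this ratio was 0.339. Sox10 was lowest in replicate 1, at 250 CPM against 288 and 315 CPM. A part of exon length or of RNA quality in these differences was not tested.

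Some entries annotated as microRNA genes carried counts of a size seen for housekeeping mRNA in these polyA-enriched libraries. Of 1148 such genes 12 reached 1 CPM, and 2 of them, Mir692-2 (1527 ± 112 CPM) and Mir682 (518 ± 33.9 CPM), held 96.6% of all microRNA counts. The Mir692-2 hairpin (RefSeq, GRCm38.p6, chr4:125504749-125504857, plus strand) is shown 5′ to 3′ with the mature miR-692 in capitals, because its letters are nearly those of an mRNA.
Mir692-2: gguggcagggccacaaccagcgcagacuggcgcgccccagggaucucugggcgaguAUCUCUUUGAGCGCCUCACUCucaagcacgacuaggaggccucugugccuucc

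Over its 109 bases this hairpin is 97.2% identical to a transcript of the ferritin gene Ftl1, with 3 mismatches, and 100% to Ftl1-ps1. Ftl1 measured 1953 CPM. The Mir682 hairpin, of 96 bases, is 99.0% identical to Rpl37a mRNA, with 1 mismatch, and 100% to the pseudogene Gm4149. Rpl37a measured 132 CPM. Reads from stretches where such copies are identical cannot be told apart from reads of the microRNA genes. These 2 values are therefore not read as microRNA levels.

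The X-inactivation RNA Xist measured 427, 322 and 313 CPM. The Y-linked genes Uty and Ddx3y had 2 and 1 counts, and Kdm5d and Eif2s3y had 0.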
